A study of Mus musculus with 24 samples.

Results

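Matricellular proteins and matrix proteoglycans are secreted components of the extracellular matrix, and 10 of their genes were followed here: fibronectin (Fn1), fibrillin-1 (Fbn1), periostin (Postn), tenascin-C (Tnc), SPARC or osteonectin (Sparc), thrombospondin-1 (Thbs1), decorin (Dcn), lumican (Lum), biglycan (Bgn) and versican (Vcan). They were found by symbol among the 55487 genes of the table, and all 10 were present and passed the filter on low counts that left 18339 genes for testing. The data are bulk RNA-seq of kidneys from 24 male mice on the B6 background at 15 weeks of age. Every mouse carried X-linked Alport syndrome (XLAS), from a cross labelled Nbl1xCol4a5, and the 2 genotypes were heterozygous (HET, 13 mice) or wild type (WT, 11 mice) for Nbl1, which encodes a secreted antagonist of bone morphogenetic proteins. Batch 1 held 6 HET and 6 WT mice, and batch 2 held 7 HET and 5 WT mice. Both genotypes carry the Alport defect, so the contrast is between Alport kidneys with 1 or 2 wild-type copies of Nbl1, and kidneys without Alport syndrome were not analysed here. Each label names a separate mouse library, numbered within its genotype, and the labels do not say which mice were littermates.

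Fibronectin and fibrillin-1 are structural glycoproteins: fibronectin forms a provisional matrix to which cells attach through integrins, and fibrillin-1 builds the microfibrils that hold latent TGF-beta. Matricellular proteins such as periostin, tenascin-C, SPARC and thrombospondin-1 add little to the mechanical structure and change how cells and growth factors meet the matrix. Decorin, lumican and biglycan are small leucine-rich proteoglycans that bind collagen fibrils, and versican is a large proteoglycan that binds hyaluronan. In the kidney these genes are known for their activity in fibroblasts, mesangial cells and vessel walls and for their rise during scarring. In bulk tissue, fewer cells of a type and less RNA per cell cannot be told apart.

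The library totals were 29551337 to 33019871 counts in batch 1 and 36380374 to 50746652 in batch 2, and levels given as CPM are counts scaled to library size by the TMM method. All 5 proximal tubule markers and all 7 podocyte markers were present in every library, with summed levels of 8656 to 12114 CPM and 457 to 606 CPM. Nbl1 ranged from 3.86 to 9.24 CPM (median 4.16) in HET and from 3.62 to 7.78 CPM (median 7.19) in WT kidneys of batch 1, and from 4.22 to 7.82 CPM (median 4.95) in HET kidneys of batch 2, where the 5 WT kidneys held 10.9, 9.76, 11.2, 15.1 and 6.999 CPM. Nbl1 and its neighbour Htr6 did not match the label in 3 libraries of batch 1, those labelled HET replicate 6, WT replicate 1 and WT replicate 2. They stay in every group as labelled, and values without them are given beside the signs and calls described here that they change. In HET against WT, edgeR's quasi-likelihood test called 0 of 18339 genes over all mice at an adjusted p under 0.05 (0%), 0 in batch 1 (0%), and 1, Htr6, in batch 2 (0.00545%). Without the 3 libraries the calls over all mice were Htr6 and Nbl1, the genes that singled the libraries out.

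RefSeq promoters on GRCm38.p6 were matched by symbol for 6 of the 10 genes, Bgn, Fbn1, Postn, Sparc, Tnc and Vcan, with 8 start sites in all. The 250 bases before the start are printed for 4 of them, 5′ to 3′ on the gene's strand: Bgn, the most abundant of the genes, Tnc and Vcan, a pair that varied together across mice, and Postn, which varied apart from most of the others. Capitals mark the letters of a motif on either strand: the GC box GGGCGG, the TATA box TATAAA, the Smad box CAGAC, the AP-1 site TGANTCA and the TEAD site CATTCC.
Bgn, chrX:73483351-73483600, plus strand: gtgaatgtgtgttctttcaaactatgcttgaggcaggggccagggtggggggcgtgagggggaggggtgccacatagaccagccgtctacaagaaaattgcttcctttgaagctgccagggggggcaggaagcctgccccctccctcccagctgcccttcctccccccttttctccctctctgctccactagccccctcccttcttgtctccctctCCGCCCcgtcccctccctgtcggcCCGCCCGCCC
Vcan, chr13:89742513-89742762, minus strand: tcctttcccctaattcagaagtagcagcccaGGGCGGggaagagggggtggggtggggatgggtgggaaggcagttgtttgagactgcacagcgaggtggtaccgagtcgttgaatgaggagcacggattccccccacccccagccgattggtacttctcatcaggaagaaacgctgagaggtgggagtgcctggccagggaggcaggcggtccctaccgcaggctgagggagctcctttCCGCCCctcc
Tnc, chr4:64047016-64047265, minus strand: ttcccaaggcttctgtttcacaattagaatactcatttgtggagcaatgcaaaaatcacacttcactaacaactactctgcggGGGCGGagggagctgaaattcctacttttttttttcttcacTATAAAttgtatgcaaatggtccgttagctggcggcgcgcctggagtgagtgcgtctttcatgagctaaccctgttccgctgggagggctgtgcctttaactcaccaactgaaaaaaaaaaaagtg
Postn, chr3:54360857-54361106, plus strand: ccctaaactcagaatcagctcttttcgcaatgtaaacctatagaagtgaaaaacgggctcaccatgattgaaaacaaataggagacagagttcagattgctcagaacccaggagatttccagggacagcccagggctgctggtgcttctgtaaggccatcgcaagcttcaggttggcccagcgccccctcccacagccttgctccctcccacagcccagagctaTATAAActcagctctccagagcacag

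The Bgn promoter held 3 matches to the GC box, which began 34, 10 and 6 bases before the start, the last 2 of which overlap, and none to the TATA box. Vcan held 2 GC boxes, Tnc 1 GC box and 1 TATA box that began 126 bases before the start, and Postn 1 TATA box that began 26 bases before it. Among 32851 RefSeq promoters, searched over the 250 bases before the start, 32.7% held the GC box and 12.4% the TATA box. The shares were 42.2% for the Smad box, 6.75% for the AP-1 site and 12.6% for the TEAD site. In the 4 printed windows the letters of the Smad, AP-1 and TEAD motifs were absent. Tnc and Postn each have another RefSeq start, not printed, whose 250 bases hold 1 Smad box, 70 bases before that start in Tnc and 191 in Postn. The matches describe letters in a window and say nothing of binding.

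On GRCm38 the genes lie on 8 chromosomes in the GENCODE M21 annotation. Bgn (ENSMUSG00000031375, chromosome X, 73483602 to 73495933, plus strand) is the X-linked member. Dcn (ENSMUSG00000019929, chromosome 10, 97479609 to 97518143, plus strand) and Lum (ENSMUSG00000036446, chromosome 10, 97565128 to 97572703, plus strand) are neighbours, 46984 bases apart on the same strand, with the keratocan gene Kera 34175 bases beyond Lum and the epiphycan gene Epyc after it. Tnc (ENSMUSG00000028364, chromosome 4, 63959785 to 64047015, minus strand) shares its chromosome with Nbl1 (ENSMUSG00000041120, chromosome 4, 139082284 to 139092993, minus strand), and Thbs1 (ENSMUSG00000040152, chromosome 2, 118111876 to 118127133, plus strand) shares chromosome 2 with Fbn1 (ENSMUSG00000027204, chromosome 2, 125300594 to 125507993, minus strand). The other genes were Fn1 (ENSMUSG00000026193, chromosome 1, 71585520 to 71653200, minus strand), Postn (ENSMUSG00000027750, chromosome 3, 54361109 to 54391037, plus strand), Sparc (ENSMUSG00000018593, chromosome 11, 55394500 to 55423183, minus strand) and Vcan (ENSMUSG00000021614, chromosome 13, 89655312 to 89742509, minus strand). All 10 are annotated as protein coding.

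Levels of different genes are compared per length, as TPM (counts per transcript length, scaled to a fixed total) and within a batch, because TPM of most genes was higher in batch 2 than in batch 1. Biglycan was the most abundant of the 10, at 74.4 ± 11.2 TPM (SD, n = 12) in batch 1 and 223 ± 40.96 TPM (SD, n = 12) in batch 2, and it exceeded SPARC in 12 of 12 mice of each batch. Sparc followed at 53.4 ± 7.62 and 137 ± 23.8 TPM, and Dcn at 23.9 ± 3.69 and 70.3 ± 15.2 TPM. These 3 collagen-binding proteins headed the order in both batches.

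The middle of the order held Thbs1 (16.4 ± 6.51 TPM in batch 1, 30.96 ± 5.44 TPM in batch 2) and Fn1 (12.8 ± 2.68 and 31.6 ± 6.54 TPM). Their order was not the same in the 2 batches: Thbs1 was above Fn1 in 10 of 12 mice of batch 1, and Fn1 above Thbs1 in 7 of 12 mice of batch 2, with overlapping ranges. Fbn1 stood at 5.36 ± 0.925 and 9.05 ± 1.81 TPM and Tnc at 4.69 ± 1.05 and 11.6 ± 2.75 TPM, and this pair also changed places, with Fbn1 higher in 9 of 12 mice of batch 1 and Tnc higher in 10 of 12 of batch 2.

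Postn (1.15 ± 0.522 and 3.02 ± 1.26 TPM), Vcan (1.13 ± 0.289 and 2.29 ± 0.672 TPM) and Lum (1.04 ± 0.223 and 2.73 ± 0.738 TPM) were the lowest in both batches and did not differ from each other beyond their spread. In every mouse all 3 lay below Fbn1 and Tnc. The lowest count of any of the 10 in a library was 63, for Postn, and Lum had as few as 66, so counting error is largest for these genes. On the FPKM scale the order was the same in each batch.

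**Figure D1:**
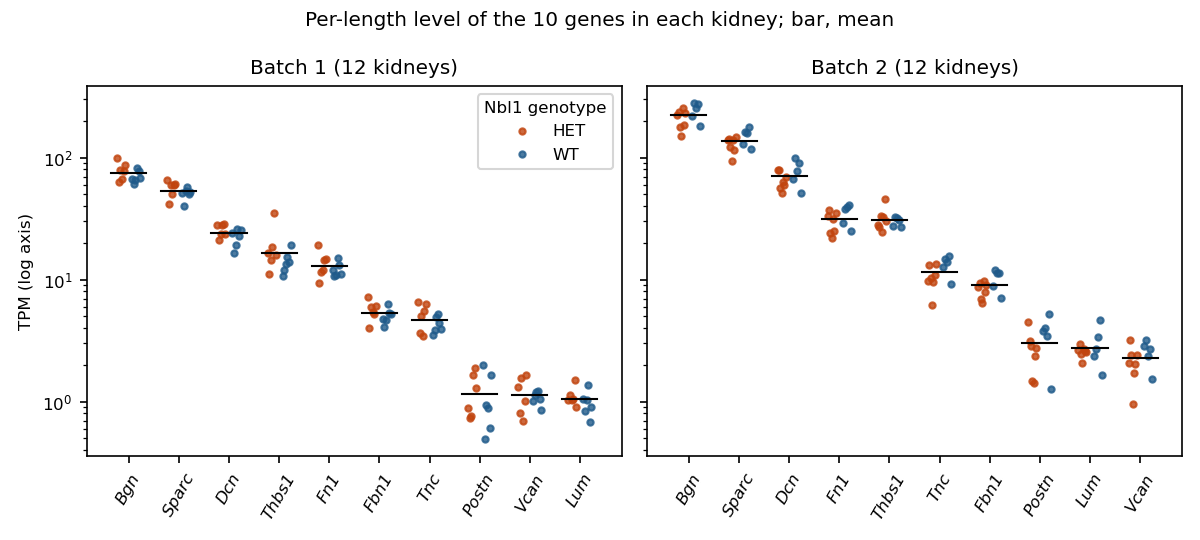
TPM of the 10 genes (vertical log axis) in each kidney of batch 1 (left) and batch 2 (right), ordered by mean; points are kidneys coloured by Nbl1 genotype and bars are means over 12 kidneys. Bgn leads in both batches at 74.4 and 223 TPM, and Postn, Vcan and Lum lie lowest.

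Between batches, with genotype as a covariate, 9 of the 10 genes had a higher fitted CPM in batch 2 and edgeR's quasi-likelihood test called 6 of them higher and none lower, while 63.5% of all genes were called, 32.6% of all genes as higher and 30.9% as lower. The 6 were Bgn at a log2 fold change of 0.65 (95% interval 0.51 to 0.78), Dcn at 0.61 (95% interval 0.45 to 0.78), Sparc at 0.44, Lum at 0.43, Tnc at 0.40 and Fn1 at 0.36. Their largest adjusted p was 0.00299, for Fn1. Fbn1 was the member on the lower side, at -0.12 (95% interval -0.27 to 0.026), while Thbs1 stood at 0.012 and Vcan at 0.12, none of them called. On the TPM scale Fbn1 turned to the higher side, at 0.66 on the log2(TPM + 1) scale with an adjusted p of 1.43e-07 by limma, beside a median of 0.69 over all genes. The batches also differed in depth, and what else separates them is not stated in the labels, so genotype was compared within batch.

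The question of the series, whether 1 copy of Nbl1 alters the Alport kidney, was put to each gene over all mice with batch as a covariate and within each batch. Over all mice none of the 10 passed the test and none reached an unadjusted p under 0.05 (755 of 18339 genes did, 4.12%). Their log2 fold changes had a median of 0.0058, beside 0.0098 over all genes. In batch 1, 9 of 10 genes were fitted higher in HET (median 0.099), with none called and none at an unadjusted p under 0.05 (2.78% of all genes). In batch 2, 9 of 10 were fitted lower (median -0.090), again with none called and none at an unadjusted p under 0.05 (8.34% of all genes).

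The difference between the batches was tested as the interaction of genotype with batch. It was negative for all 10 genes (median -0.16, beside 0.021 over all genes), ran from -0.32 for Tnc to -0.054 for Thbs1, and was called for none of them. The smallest adjusted p was 0.672, for Fbn1 and Tnc, and 0% of all genes were called (8.2% at an unadjusted p under 0.05). Many of the 10 genes varied together across mice, with 17 of their 45 pairs passing as described below. Their 10 signs are therefore not 10 separate observations. The HET and WT ranges overlapped for every member in both batches, while 0.0872% of all genes in batch 1 and 0.551% in batch 2 had groups that did not overlap. The 9 fibroblast and myofibroblast markers were fitted higher in HET in 9 of 9 cases in batch 1 (median 0.16) and lower in 6 of 9 in batch 2 (median -0.075), with 0 called. Their summed level was 532 to 835 CPM in HET and 531 to 696 CPM in WT kidneys of batch 1, and 599 to 835 CPM in HET and 599.9 to 921 CPM in WT kidneys of batch 2, with none at 0. Their part in the values of the 10 genes was not tested.

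**Figure D2:**
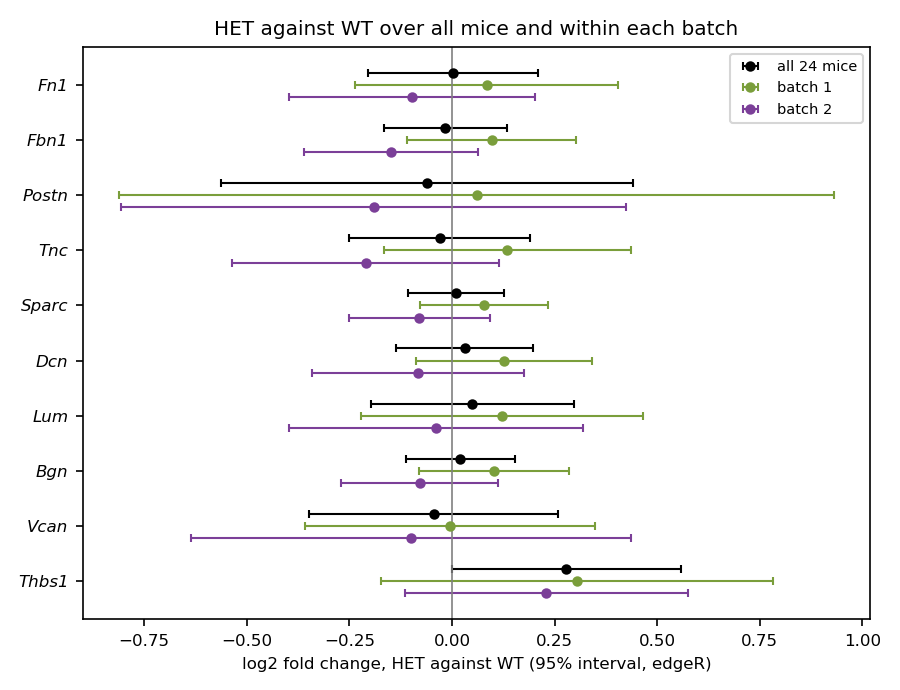
Log2 fold changes of HET against WT with 95% intervals from edgeR, for the 10 genes (rows), over all 24 mice (black), batch 1 (green) and batch 2 (purple). Every interval includes 0; batch 1 estimates lie right of batch 2 estimates for all 10 genes, and Thbs1 is the member with estimates above 0 in both batches by more than 0.2.

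Among the structural glycoproteins, fibronectin was close to equal between genotypes. In batch 1, Fn1 ranged from 109.9 to 185 CPM (median 122) in the 6 HET kidneys and from 101 to 143 CPM (median 126) in the 6 WT kidneys. In batch 2, the 7 HET kidneys held 124 to 183 CPM (median 170.1), and WT replicates 7 to 11 held 143, 181, 197, 193 and 127 CPM. The groups overlapped, and the lowest batch 2 values of the 2 genotypes, 124 CPM in HET replicate 9 and 127 CPM in WT replicate 11, nearly coincided. Its log2 fold change was 0.0027 (95% interval -0.20 to 0.21) over all mice, 0.085 in batch 1 and -0.10 in batch 2, with exact two-sided permutation p-values of 0.993, 0.658 and 0.617. Without the 3 libraries that went against their labels, the value over all mice was -0.011.

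Fibrillin-1 was also close to equal over all mice. In batch 1, Fbn1 ranged from 62.6 to 89.3 CPM (median 71.05) in the 6 HET kidneys and from 58.6 to 79.8 CPM (median 67.00) in the 6 WT kidneys. The 7 HET kidneys of batch 2 held 53.04 to 69.2 CPM (median 63.2), and WT replicates 7 to 11 held 60.8, 76.8, 76.4, 74.02 and 52.2 CPM. In batch 2, 3 of the 5 WT kidneys lay above the highest HET kidney, while the other 2 lay inside or below the HET range. The log2 fold change was -0.016 (95% interval -0.17 to 0.13) over all mice, 0.10 in batch 1 and -0.15 in batch 2 (exact two-sided permutation p = 0.881, 0.387 and 0.298).

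Of the matricellular genes, thrombospondin-1, which binds integrins and CD36 and activates latent TGF-beta, stood farthest from equality. In batch 1, Thbs1 ranged from 106 to 254 CPM (median 121) in the 6 HET kidneys and from 99.9 to 146 CPM (median 113) in the 6 WT kidneys. Among the batch 2 kidneys, the 7 HET values were 109 to 225 CPM (median 125.5), and WT replicates 7 to 11 held 112, 121, 128, 118 and 115 CPM. The groups overlapped, and the highest value of each batch was that of 1 HET kidney: HET replicate 5 at 254 CPM and HET replicate 12 at 225 CPM. The next HET kidney stood at 138 CPM in batch 1 and 151 CPM in batch 2. In batch 2, HET replicates 9 and 11, at 151 and 137 CPM, also lay above the highest WT kidney, at 128 CPM. The log2 fold change over all mice was 0.28 (95% interval -0.0012 to 0.56), with p = 0.0509 before and 0.997 after Benjamini-Hochberg adjustment in edgeR. An exact two-sided permutation of genotype within batch (n = 13 and 11) gave p = 0.0812. Without HET replicate 5 the log2 fold change was 0.15, and without HET replicate 12 it was 0.21. Within batch 1 it was 0.30, or 0.062 without HET replicate 5, and within batch 2 0.23, or 0.084 without HET replicate 12.

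Periostin, a matricellular protein made by activated fibroblasts and injured tubules, was the most variable of the 10. In batch 1, Postn ranged from 2.55 to 7.45 CPM (median 4.17) in the 6 HET kidneys and from 1.98 to 8.59 CPM (median 3.49) in the 6 WT kidneys. In batch 2, the 7 HET kidneys held 3.12 to 8.68 CPM (median 5.55), and WT replicates 7 to 11 held 6.65, 6.30, 6.48, 8.02 and 2.93 CPM. Within each group the highest kidney held 2.74 to 4.34 times the lowest, and the groups overlapped almost entirely. Between genotypes, Postn had a log2 fold change of -0.060 (95% interval -0.56 to 0.44) over all mice, 0.060 in batch 1 and -0.19 in batch 2, with exact two-sided permutation p-values of 0.916, 0.777 and 0.569. Its biological coefficient of variation, the spread beyond counting noise in the fit, was 0.402, above that of 97.7% of all genes tested. The corresponding values were 0.0993 for Sparc and 0.111 for Bgn, near the median of 0.107 over all genes.

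Tenascin-C, a hexameric glycoprotein that appears in remodelling tissue, differed in sign between batches, as did most of the 10 genes. In batch 1, Tnc ranged from 33.2 to 61.5 CPM (median 46.6) in the 6 HET kidneys and from 35.8 to 49.5 CPM (median 43.7) in the 6 WT kidneys. The 7 HET kidneys of batch 2 held 38.05 to 67.05 CPM (median 56.5), and WT replicates 7 to 11 held 62.99, 69.2, 67.6, 73.4 and 48.5 CPM. In batch 2, 3 of 5 WT kidneys were above every HET kidney, and HET replicate 10 was the lowest of the batch. The log2 fold change was -0.030 (95% interval -0.25 to 0.19) over all mice, 0.13 in batch 1 and -0.21 in batch 2 (exact two-sided permutation p = 0.704, 0.446 and 0.245), and the difference between the 2 batches did not pass (interaction -0.32 (95% interval -0.75 to 0.10), adjusted p = 0.672 in edgeR).

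SPARC, a calcium-binding protein that binds collagen, had the narrowest interval of the 10. In batch 1, Sparc ranged from 136 to 178 CPM (median 158) in the 6 HET kidneys and from 129.9 to 167 CPM (median 144) in the 6 WT kidneys. Among the batch 2 kidneys, the 7 HET values were 168 to 217 CPM (median 208), and WT replicates 7 to 11 held 182, 215, 228, 244 and 182 CPM. HET replicate 10 was lower than the other 6 HET kidneys of batch 2, and WT replicates 7 and 11 lay between it and them. Between genotypes, Sparc had a log2 fold change of 0.0090 (95% interval -0.11 to 0.13) over all mice, which covers folds of 0.928 to 1.09, with an exact two-sided permutation p of 0.857. It was 0.079 in batch 1 and -0.080 in batch 2, and -0.015 over all mice without the 3 libraries.

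Among the proteoglycans, biglycan, which also acts on Toll-like receptors when released from the matrix, showed little difference. In batch 1, Bgn ranged from 199.5 to 288 CPM (median 236) in the 6 HET kidneys and from 195 to 246 CPM (median 226) in the 6 WT kidneys. In batch 2, the 7 HET kidneys held 297 to 417 CPM (median 361), and WT replicates 7 to 11 held 339, 407, 392, 406 and 304 CPM. The batch 2 kidneys lay above all batch 1 kidneys in both genotypes, and within each batch the genotypes overlapped. Between genotypes, Bgn had a log2 fold change of 0.021 (95% interval -0.11 to 0.15) over all mice, which covers folds of 0.926 to 1.11, and 0.10 and -0.079 within batches 1 and 2 (exact two-sided permutation p = 0.773, 0.329 and 0.563). Over all mice without the 3 libraries it was -0.0047.

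Decorin, which binds collagen and TGF-beta, also overlapped between genotypes. In batch 1, Dcn ranged from 47.9 to 59.8 CPM (median 56.3) in the 6 HET kidneys and from 40.9 to 60.4 CPM (median 52.1) in the 6 WT kidneys. The 7 HET kidneys of batch 2 held 70.5 to 90.8 CPM (median 78.96), and WT replicates 7 to 11 held 73.9, 101, 84.6, 94.2 and 61.2 CPM. WT kidneys held both the highest and the lowest value of batch 2, 101 and 61.2 CPM. HET against WT gave a log2 fold change of 0.031 (95% interval -0.14 to 0.20) over all mice, 0.13 in batch 1 and -0.082 in batch 2, with exact two-sided permutation p-values of 0.592, 0.26 and 0.711.

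Lumican, a keratan sulphate proteoglycan of collagen fibrils, was measured at low counts. In batch 1, Lum ranged from 2.69 to 4.51 CPM (median 3.25) in the 6 HET kidneys and from 2.18 to 4.30 CPM (median 3.10) in the 6 WT kidneys. Among the batch 2 kidneys, the 7 HET values were 4.16 to 5.07 CPM (median 4.48), and WT replicates 7 to 11 held 3.74, 4.01, 5.31, 7.06 and 2.83 CPM. The 7 HET kidneys of batch 2 lay close together, with a coefficient of variation of 7.36%, while that of the 5 WT kidneys was 35.7%. These HET kidneys held only 124 to 187 counts of Lum, and the WT extremes were replicates 10 and 11, at 7.06 and 2.83 CPM. The difference in spread was not tested. Between genotypes, Lum had a log2 fold change of 0.049 (95% interval -0.20 to 0.30) over all mice (exact two-sided permutation p = 0.478), 0.12 in batch 1 and -0.038 in batch 2. The mean of log2 CPM in batch 2 was higher in HET by 0.051 while the fitted fold change was negative, so the direction there depends on the scale.

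Versican, a chondroitin sulphate proteoglycan that fills provisional matrix, overlapped between genotypes in both batches. In batch 1, Vcan ranged from 9.31 to 17.5 CPM (median 12.7) in the 6 HET kidneys and from 9.61 to 15.8 CPM (median 13.03) in the 6 WT kidneys. In batch 2, the 7 HET kidneys held 7.88 to 19.7 CPM (median 14.8), and WT replicates 7 to 11 held 16.4, 16.8, 15.5, 15.4 and 8.93 CPM. Low kidneys occurred in both genotypes of batch 2, HET replicate 10 at 7.88 CPM and WT replicate 11 at 8.93 CPM. HET against WT gave a log2 fold change of -0.045 (95% interval -0.35 to 0.26) over all mice, -0.0052 in batch 1 and -0.10 in batch 2, with exact two-sided permutation p-values of 0.652, 0.894 and 0.665. With 6 against 6 mice the smallest exact p is 0.00216, and with 7 against 5 it is 0.00126. In 30 exact tests of the 10 genes none was below 0.05, and the smallest was that of Thbs1 over all mice.

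**Figure D3:**
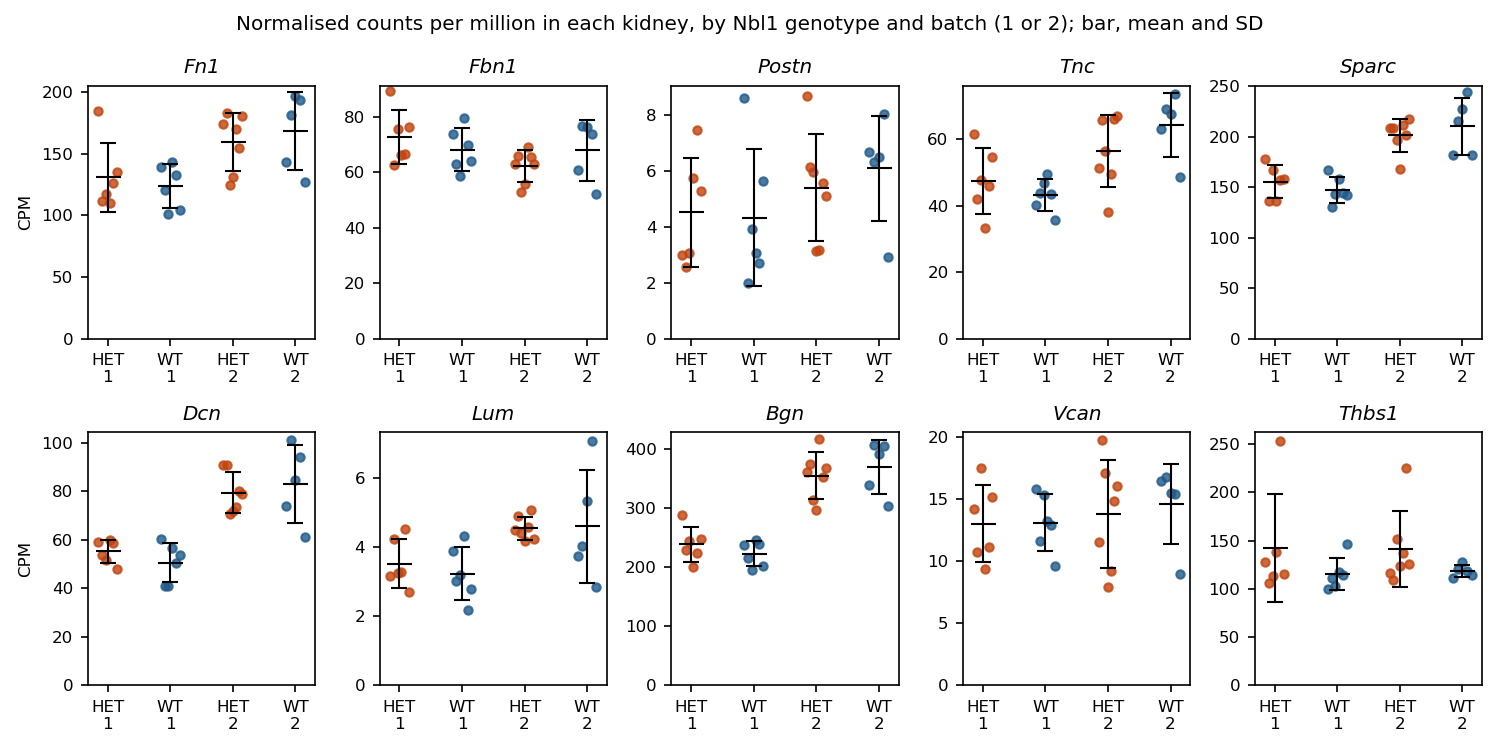
CPM (vertical axes from 0) of each gene in every kidney, by Nbl1 genotype and batch, with mean and SD. HET and WT overlap in every panel. In the Thbs1 panel the highest kidney of each batch is HET, at 254 and 225 CPM.

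Genes that work with these proteins were taken in 6 lists. Of 114 genes in the table, 101 were tested, and over all mice 47 were fitted higher and 54 lower in HET, with 0 called and 0 at an unadjusted p under 0.05 (median log2 fold change -0.0041). In batch 1, 63 were higher and 38 lower, and in batch 2, 33 were higher and 68 lower, with 0 called in either batch. The list of glycoproteins and elastic fibre genes had 15 of 18 tested higher in batch 1 (median 0.078) and 15 of 18 lower in batch 2 (median -0.14). The other matricellular genes had 14 of 16 higher in batch 1 and 12 of 16 lower in batch 2. Receptors had 11 of 19 higher and then 11 of 19 lower, and enzymes of glycosaminoglycan synthesis 13 of 22 lower and then 12 of 22 lower. The other proteoglycan genes had 6 of 11 lower in batch 1 and 9 of 11 lower in batch 2, and the proteases 9 of 15 higher and then 9 of 15 lower. All genes tested divided into 9304 higher and 9023 lower in batch 1, and 9226 higher and 9097 lower in batch 2. The counts are descriptions, since genes of a list may vary together.

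The 2 genes of smallest p and the most abundant gene of each list were as follows, with log2 fold changes over all mice. Among glycoproteins Efemp1 stood at 0.059, Fbn2 at -0.26 and the most abundant, the elastic fibre protein gene Fbln5, at -0.044. Among matricellular genes Ccn2, which encodes connective tissue growth factor, stood at 0.28 with a standard error of 0.179, Ccn3 at 0.27 and osteopontin, Spp1, at 0.013. Ccn2 was thus as far from 0 as Thbs1 and with a wider error. Among proteoglycan genes the link protein gene Hapln1 stood at -0.37 (unadjusted p = 0.0776, 0.997 after adjustment in edgeR), Omd at -0.18 and Srgn at 0.012. The integrin genes Itga4 and Itga9 stood at -0.11 and 0.075 and the thrombospondin receptor gene Cd36 at -0.065. The chondroitin sulphotransferase gene Chst11 stood at -0.068, Xylt2, whose enzyme starts glycosaminoglycan chains, at -0.10, and Fam20b at 0.012. The protease genes Adamts4, Bmp1 and Htra1 stood at 0.21, -0.10 and -0.037. None of these 18 genes passed.

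Co-variation across mice was measured on log2 CPM after the mean of each genotype and batch was removed, so that it reflects differences between kidneys of one group. Pearson's r and Spearman's rho were tested by 100000 permutations within genotype and batch (smallest p 1e-05), and p-values were adjusted over 45 pairs of the 10 genes and 80 relations with 8 reference genes. Of the 45 pairs, 41 had a positive r and 17 passed, all positive, while 14 passed by rho. The median r was 0.39 (jackknife standard error over mice 0.17), beside a median of -0.033 between the 10 genes and all genes tested. An r above 0.5 was found for 40% of the pairs and for 3.98% of the relations with all genes.

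The tightest group held the structural glycoproteins and biglycan. Fbn1 and Bgn had r = 0.92 (rho = 0.93, n = 24 mice, permutation p = 1e-05, adjusted p = 0.000125), with 0.89 in batch 1 and 0.93 in batch 2. Fn1 had r = 0.91 with Bgn and 0.90 with Fbn1, and Sparc 0.81 with Fbn1, 0.80 with Bgn and 0.79 with Fn1. Without the 2 libraries farthest on the x axis, r was 0.88 for Fbn1 with Bgn. These 6 pairs passed with any 1 library left out.

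Tenascin-C joined this group less tightly, with r = 0.68 to Sparc, 0.67 to Bgn and 0.66 to Fn1, and had its closest partner in versican. Tnc and Vcan had r = 0.80 (rho = 0.71, adjusted permutation p = 0.000667), 0.67 in batch 1 and 0.90 in batch 2, and 0.73 without the 2 farthest libraries. Vcan itself passed with 1 other member, Sparc (r = 0.57), and that call ended without HET replicate 10 (r = 0.47, adjusted permutation p = 0.0871). Decorin passed with Fbn1 (0.65), Fn1 (0.61), Postn (0.59), Sparc (0.57) and Bgn (0.52). All 5 of these calls ended without WT replicate 11, at r of 0.53, 0.52, 0.50, 0.49 and 0.40 and adjusted permutation p-values of 0.0621, 0.0554, 0.0971, 0.0888 and 0.193. The call of Fbn1 with Tnc (r = 0.61) also ended without it (r = 0.52, adjusted permutation p = 0.0654). With Bgn and with Sparc, Dcn lost its call without any of 17 and of 7 single libraries, so these 2 relations are close to the threshold. Without the 3 libraries that went against their labels, Sparc with Dcn also lost its call (r = 0.52, adjusted permutation p = 0.0834).

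The neighbours Dcn and Lum had r = 0.52 (rho = 0.41, permutation p = 0.0461, adjusted p = 0.111), and 0.36 without WT replicate 11. Lum passed with none of the other 9, although all 9 values were positive. Thbs1 had no relation to the others that passed: its 9 values ran from -0.16 with Vcan to 0.28 with Postn, with a median of 0.026. Among the 36 pairs without Thbs1, all were positive and the median r was 0.49.

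The median r of the 45 pairs was 0.28 in batch 1, where 27 were positive, and 0.61 in batch 2, where 43 were. Batch 2 held 2 kidneys that were low in most of the genes, WT replicate 11 and HET replicate 10, each with 0 of 10 genes above its group's mean. On average over the 10 genes they lay -0.43 and -0.33 on the log2 scale from their group. Without WT replicate 11 the median in batch 2 was 0.39, and without both it was 0.23, near that of batch 1. At the other end, WT replicate 9 had 10 of 10 genes above its group's mean, and WT replicates 4, 8 and 10 and HET replicates 8 and 12 had 9 of 10. The group means of batch 2 include the 2 low kidneys, which raises the deviations of the others, most in the WT group of 5. The correlation of the members with log2 library size, in the same deviations, ran from -0.054 for Dcn to 0.33 for Vcan.

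**Figure D4:**
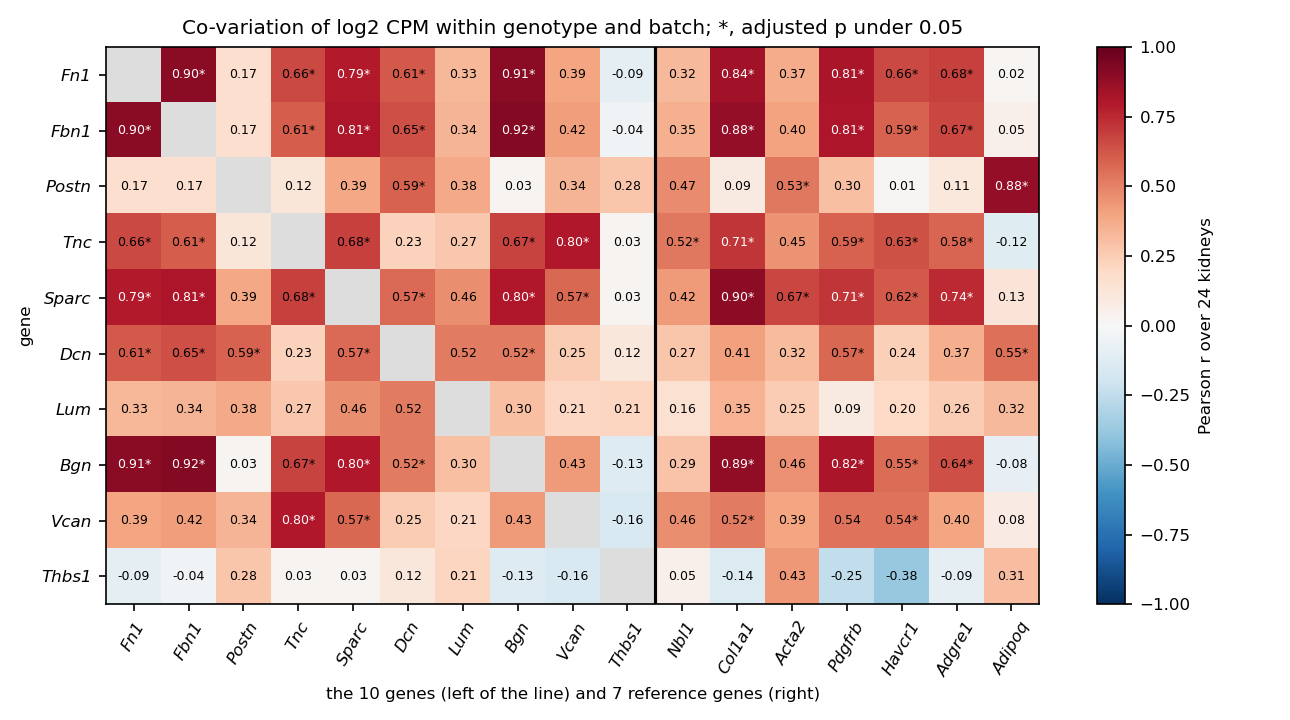
Pearson r of log2 CPM over 24 kidneys, group means removed, for each of the 10 genes (rows) with the other members and with 7 reference genes (columns); colour runs from -1 (blue) to 1 (red), and asterisks mark an adjusted permutation p under 0.05. Fn1, Fbn1, Sparc and Bgn form a block at 0.79 to 0.92, the Thbs1 row is pale, and Postn is dark with Adipoq.

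The reference genes placed this variation beside that of known cell types. The share of all genes tested that passes with each reference gene is not given here. The counts below therefore do not set the 10 genes apart from other genes. Collagen I, Col1a1, a fibroblast gene, passed with 6 of 10 members, led by Sparc (r = 0.90), Bgn (0.89), Fbn1 (0.88) and Fn1 (0.84). Pdgfrb, the receptor of mesangial cells, pericytes and fibroblasts, passed with 6, led by Bgn (0.82), Fn1 (0.81) and Fbn1 (0.81). The tubular injury gene Havcr1, which encodes KIM-1, passed with 6, from 0.54 for Vcan to 0.66 for Fn1, and the macrophage gene Adgre1, which encodes F4/80, with 5, highest for Sparc (0.74). In all, 28 of the 80 relations passed, and 16 of them passed with any 1 library left out. Among the other 12, Vcan lost its call with Col1a1 without any 1 of 17 libraries and with Havcr1 without any 1 of 10, and Bgn with Havcr1 without any 1 of 9. Fbn1 with Havcr1 lost it without HET replicate 1, WT replicate 4 or WT replicate 11 (adjusted permutation p = 0.0869, 0.0533 and 0.0621). Sparc with Havcr1 lost it without HET replicate 1 (0.0512). Tnc with Pdgfrb lost it without HET replicate 1, HET replicate 10 or WT replicate 11 (0.0512, 0.0837 and 0.127). Without the 3 libraries that went against their labels, Vcan with Col1a1 (r = 0.50, adjusted permutation p = 0.0764) and Bgn with Havcr1 (r = 0.57, adjusted permutation p = 0.0505) did not pass. Dcn with Pdgfrb (r = 0.57) lost its call without WT replicate 11 (r = 0.44, adjusted permutation p = 0.0971), and Tnc with Adgre1 (r = 0.58) without HET replicate 10 (r = 0.49, adjusted permutation p = 0.0675).

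The smooth muscle actin gene Acta2, a myofibroblast marker, passed with 2 members, Sparc (0.67) and Postn (0.53). For Postn the call ended without the 3 libraries that went against their labels (r = 0.43, adjusted permutation p = 0.17) and without any 1 of 12 libraries, and for Sparc without HET replicate 10 (r = 0.59, adjusted permutation p = 0.0536). Thbs1 with Acta2 (r = 0.43) passed without the 3 libraries (r = 0.56, adjusted permutation p = 0.0413). With all 24 libraries Nbl1 itself passed with 1 member, Tnc (r = 0.52, rho = 0.59, n = 24 mice, permutation p = 0.0151, adjusted p = 0.0438). Its r with Tnc was 0.26 in batch 1 and 0.83 in batch 2, and 0.63 without the 3 libraries (adjusted permutation p = 0.0135). Without them Nbl1 also passed with Postn (r = 0.57 in place of 0.47, adjusted permutation p = 0.0367) and Lum (r = 0.56 in place of 0.16, adjusted permutation p = 0.0314), so the number of members that pass with Nbl1 rests on these libraries. The call of Nbl1 with Tnc ended without any 1 of 15 libraries, at the weakest without WT replicate 11 (r = 0.45, adjusted permutation p = 0.159). In batch 2 Nbl1 had r above 0.5 with 9 of the 10 members, the exception being Thbs1 (0.016). The share of all genes above 0.5 with Nbl1 in batch 2 is not given here. HET replicate 10 and WT replicate 11, low in most members, were also lowest of their batch 2 groups in Nbl1, at 4.22 and 6.999 CPM. In batch 1, which holds the 3 libraries, the values of Nbl1 ran from -0.32 for Lum to 0.37 for Postn. Both WT replicate 11, low in these genes, and WT replicate 10, high in them, were at the ends of Nbl1 among the batch 2 WT kidneys, at 6.999 and 15.1 CPM.

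Periostin was the member with the highest r to the fat cell gene among the reference genes. With Adipoq, which encodes the fat cell hormone adiponectin, it had r = 0.88 (rho = 0.90, n = 24 mice, permutation p = 1e-05, adjusted p = 0.000125), 0.87 in batch 1, 0.94 in batch 2 and 0.88 without HET replicates 1 and 5, the farthest in Adipoq. Adipoq ran from 0.0582 CPM in HET replicate 1 to 16.2 CPM in HET replicate 7. Those kidneys held 2.97 and 8.68 CPM of Postn. The 3 kidneys with the least Postn, WT replicate 2, HET replicate 2 and WT replicate 5 at 1.98, 2.55 and 2.71 CPM, held 0.283, 0.529 and 0.297 CPM of Adipoq.

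The summed level of the 5 fat cell markers ranged from 1.34 to 76.4 CPM in HET and 1.54 to 61.5 CPM in WT kidneys of batch 1, and from 5.73 to 89.5 CPM in HET and 4.999 to 99.2 CPM in WT kidneys of batch 2. Of these markers Lep was at 0 in some libraries. All 5 were fitted higher in HET in batch 1 (median 0.38) and all 5 lower in batch 2 (median -0.78), and none was called. Postn had these directions too (0.060 and -0.19), but they were not particular to it. Of the 10 members, 9 were fitted higher in batch 1 and 9 lower in batch 2. The sign of Postn in batch 1 reversed in 5 of 12 fits with 1 library left out. Dcn was the other member that passed with Adipoq (r = 0.55, adjusted permutation p = 0.0198), a call that ended without WT replicate 11 (r = 0.48, adjusted permutation p = 0.0971). Whether fat attached to the kidneys has a part in the levels of Postn and Dcn was not tested.

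**Figure D5:**
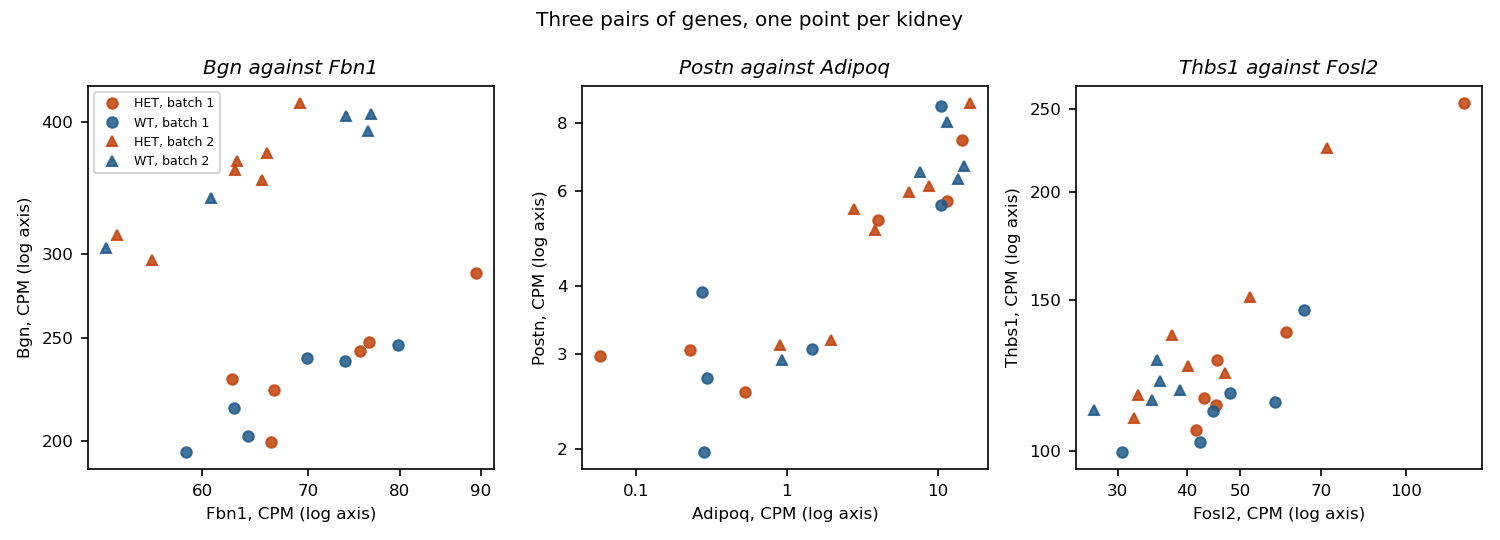
CPM of 3 pairs of genes in each kidney on log axes: Bgn against Fbn1, Postn against Adipoq and Thbs1 against Fosl2; colour gives the Nbl1 genotype and shape the batch (circles 1, triangles 2). Bgn and Fbn1 rise together within each batch along 2 separate lines, Postn rises with Adipoq, and the 2 kidneys with the most Thbs1 also have the most Fosl2.

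For each member the 3 genes most like it were found among 15360 genes with a mean of at least 1 CPM, by r over the 24 libraries with group means removed. They were picked as the highest of many values, so r is given as a description. Fn1 was most like the gelatinase gene Mmp2 (0.95), the cadherin-11 gene Cdh11 (0.93) and the arginine transporter gene Slc7a2 (0.93). Bgn was most like the basement membrane collagen gene Col15a1 (0.92), then Fbn1 and Fn1, and Fbn1 was most like Bgn, the follistatin-like gene Fstl1 (0.90) and Fn1. Members were thus among the nearest genes for Fbn1 and Bgn. Sparc was most like the vimentin gene Vim (0.90), Col1a1 (0.90) and the mannose receptor gene Mrc1 of macrophages (0.90).

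Tnc was most like the spondin-1 gene Spon1 (0.92), followed by the actinin gene Actn1 (0.83) and Cd14 (0.83), and Vcan was most like the stress protein gene Nupr1 (0.84), the aldose reductase gene Akr1b3 (0.82) and the chemokine gene Ccl11 (0.82). Without the 2 farthest libraries the value with Akr1b3 was 0.68. In batches 1 and 2 the r of Vcan was 0.46 and 0.96 with Akr1b3, and 0.57 and 0.92 with Ccl11. Dcn was most like Celf2 (0.89), Epb41l2 (0.82) and the protocadherin gene Pcdhgc3 (0.80), and Lum was most like Styk1 (0.81), Evl (0.67) and Tmsb15l (0.66). Lum thus had the weakest neighbours of the 10. Other values also fell without the 2 farthest libraries, to 0.74 for Tnc with Actn1, 0.68 for Dcn with Pcdhgc3 and 0.51 for Lum with Tmsb15l.

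Postn was most like the haptoglobin gene Hp (0.95, and 0.93 without the 2 farthest libraries), the peroxisomal transporter gene Abcd2 (0.92) and Lgals12 (0.92), a galectin known from fat cells. Its nearest member was Dcn at 0.59. Thbs1 was close to the AP-1 gene Fosl2 (0.92) and the GTPase gene Gem (0.89). The kidneys highest in Thbs1, HET replicates 5 and 12, held 127 and 71.7 CPM of Fosl2. Without them the r of Thbs1 with Fosl2 was 0.80. The other 22 kidneys also took part in picking Fosl2, so this value is a description too. In the same 2 kidneys the mean deviation of the other 9 members from their group was 0.10 in HET replicate 5 and 0.088 in HET replicate 12 on the log2 scale.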

How the data were processed

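RNA-seq libraries of 24 mouse kidneys were measured, made with a KAPA mRNA HyperPrep kit from RNA of a NucleoMag kit, per the labels' protocols. The expected counts, TPM and FPKM per gene were deposited by the authors in 1 table, and fastp, STAR, featureCounts and GRCm38/mm10 are named in the submitters' processing notes. Tool versions, annotation and the use of strand were not given in the sources used here, and 11.83% to 15.44% of the deposited expected counts per library were not whole, so they were rounded. How the authors computed the deposited TPM and FPKM from those counts was not given in the sources used here.

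edgeR 4.0.16 (R 4.3.3) tested HET against WT by quasi-likelihood with TMM scaling, a filter on low counts (filterByExpr, minimum count 10), batch as a covariate over all mice, and a Benjamini-Hochberg threshold of 0.05. Batches were also fitted alone, and the interaction and the batch contrast were tested. Exact permutations used log2 CPM with a prior count of 2. Alternatives were RLE scaling, DESeq2 1.42.0, no filter, limma 3.58.1 on log2(TPM + 1), log2(TPM + 0.1) and log2(FPKM + 1), no batch covariate, leaving out libraries, and each batch alone. Correlations used Python 3.11.15, numpy 2.4.6 and scipy 1.17.1. The scripts were tested on simulated data. Promoters are from RefSeq and coordinates from GENCODE M21, which held 55227 of the 55487 identifiers.

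The genes named were the 10 genes, Nbl1 and Htr6, 8 reference genes, the 3 genes most like each of the 10, and of each related list the 2 of smallest p over all mice and the 1 of highest TPM. These genes and lists were chosen with earlier results of these data known. Values of 1 of the 8 reference genes and of 1 gene most like Thbs1 are not reported here; p-values were adjusted with all relations. The labels do not say whether the mice were of separate litters, and reads of overlapping genes cannot be told apart without strand.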

Additional observations from a re-analysis of the deposited data

Results flagged for a closer look

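In groups of 4 to 10 kidneys, the highest or lowest value was compared with the rest of its group by Dixon's criterion, for the 10 genes in 4 groups (40 tests). Chance flags about 1 group in 20, and 4 were marked. Thbs1 in HET replicate 5 was far above the other 5 HET kidneys of batch 1, at 253.8 CPM with the next at 137.7 CPM. Sparc in HET replicate 10 was below the other 6 HET kidneys of batch 2, at 167.6 CPM with the next at 196.1 CPM. WT replicate 11 was below the other 4 WT kidneys of batch 2 in Postn, at 2.93 CPM with the next at 6.30 CPM, and in Vcan, at 8.93 CPM with the next at 15.4 CPM.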

How the results depend on the processing

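No member was called in HET against WT under any alternative, the smallest adjusted p over them being 0.231. Of the members' values, 244 kept their direction and side of the threshold, 23 reversed and 3 became called under alternatives other than leaving out 1 library, and with 1 library left out 426 kept both and 54 reversed. Calls over all genes rose from 0 to 2 over all mice and in batch 1 (Htr6 and Nbl1 in both) without HET replicate 6, WT replicate 1 and WT replicate 2. In batch 1, DESeq2 and no filter on low counts each gave 1 call (Slitrk6). In batch 2, DESeq2 gave 26, no filter 3, and limma on log2(TPM + 1) and log2(FPKM + 1) 0 each, beside 1 as reported. Fold changes near 0 over all mice turned negative: -0.0079 (Fn1), -0.0015 (Sparc) without the filter, -0.039 (Fn1), -0.039 (Sparc), -0.0088 (Dcn), -0.00051 (Lum), -0.029 (Bgn) on log2(TPM + 1), -0.038 (Fn1), -0.039 (Sparc), -0.0062 (Dcn), -0.029 (Bgn) on log2(TPM + 0.1), -0.053 (Fn1), -0.055 (Sparc), -0.023 (Dcn), -0.045 (Bgn) on log2(FPKM + 1), and -0.011 (Fn1), -0.015 (Sparc), -0.0047 (Bgn) without the 3 libraries. Vcan in batch 1 turned positive on these scales, at 0.049, 0.063 and 0.026. The log2(TPM + 1) scale moved the median of all genes by over 0.1 in batch 2 (to -0.11) and in the batch contrast (to 0.69), where Fbn1 became 0.66 and Postn, Vcan and Thbs1 were called. Thbs1 in the batch contrast was -0.054 without the 3 libraries. Apart from that shift, the cause was not tested.

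With 1 library left out, values over all mice that changed sign ranged as follows: Fn1 -0.072 to 0.030, Fbn1 -0.066 to 0.0045, Postn -0.17 to 0.062, Tnc -0.092 to 0.012, Sparc -0.026 to 0.033, Dcn -0.011 to 0.065, Lum -0.011 to 0.14, Bgn -0.024 to 0.042, Vcan -0.11 to 0.0032. In batch 1 these were Fn1 -0.042 to 0.13, Postn -0.14 to 0.38, Vcan -0.11 to 0.074, and in batch 2 Dcn -0.18 to 0.0016, Lum -0.17 to 0.17. The other values kept their sign, and none was called: in batch 1 Fbn1 0.028 to 0.15, Tnc 0.045 to 0.22, Sparc 0.036 to 0.12, Dcn 0.073 to 0.18, Lum 0.030 to 0.22, Bgn 0.039 to 0.15, Thbs1 0.062 to 0.38, in batch 2 Fn1 -0.18 to -0.035, Fbn1 -0.23 to -0.10, Postn -0.37 to -0.068, Tnc -0.30 to -0.13, Sparc -0.13 to -0.016, Bgn -0.14 to -0.038, Vcan -0.23 to -0.0039, Thbs1 0.084 to 0.28, and over all mice Thbs1 0.15 to 0.31. Counts of calls ranged from 1 to 3 in batch 2 (3 without HET replicate 10, and 2 without HET replicate 7, HET replicate 8 or WT replicate 9), and pairs of members that passed from 11 to 19, with 11 without WT replicate 11. On log2(TPM + 1), 28 pairs (median r 0.57) and 48 relations with reference genes passed, in place of 17 and 28. Batch 1 alone gave 4 pairs and 10 relations, and batch 2 alone 10 pairs (median r 0.61) and 18 relations, each on 12 kidneys. Leave-one-out and scaling checks of the reference relations and of median r were chosen after seeing the data. No paired analysis was possible because the replicate numbers were given in accession order and name no shared litter, day or animal. Depth limits Postn and Lum most, at 63 to 343 and 66 to 302 counts.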
